A study of Homo sapiens with 8 samples.

Results

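RGS2, RAB39B, C5AR1 and CCL26 were the 4 genes described here, of 19775 genes with a probe set of their own on the arrays. They were selected on measured values of these same arrays. Their signals were higher with the HSP90 inhibitor NVP-HSP990 (HSP990) and stayed above those of DMSO-treated cells when HSF1 was knocked down. They were also chosen as genes outside the ATF4 program, the amino acid stress genes driven by the transcription factor ATF4. That means only that they are not on the list of 22 genes used for it. Whether they belong to the program was not tested. Every probe set assigned to 1 of these symbols alone was taken, which gave 5 probe sets, 2 of them for RAB39B. The differences that chose the genes are given as a description with no test.

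A375 is a cell line from a human melanoma, and its RNA was measured on Affymetrix HG-U133 Plus2 arrays. There were 8 of them, and each of the 4 groups had 2. The shHSF1 cells carried a hairpin against HSF1, received 100 nM HSP990 for 3 h, and were either given Doxycycline (Dox), which switches the hairpin on, or not. The shNTC cells had a hairpin without a target and received 0.1% DMSO, likewise with or without Dox. Both hairpins sat in an inducible lentiviral vector, and culture before treatment lasted 3 days. The growth protocol gives Dox at 100 ng/mL without separating the groups, whereas the titles mark 4 arrays as Dox and the other 4 as ctrl, and the groups follow the titles. All arrays with HSP990 came from shHSF1 cells and all arrays with DMSO from shNTC cells, so what the inhibitor does and how the lines differ cannot be told apart. Nothing in the labels tells whether arrays of 1 group stem from separate cultures, and the errors and p-values therefore cover only a spread between arrays that may be technical.

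HSP90 holds many signalling proteins in shape and keeps the transcription factor HSF1 inactive. When HSP90 is blocked, HSF1 is released, binds heat shock elements and switches on chaperone genes, and a hairpin against HSF1 takes that response away. The 4 genes have other known roles. RGS2 speeds up GTP hydrolysis by G proteins, above all Gq, and can also bind the translation factor eIF2B. RAB39B is a small GTPase of vesicle traffic and autophagy whose loss causes intellectual disability and early Parkinson disease. C5AR1 is the receptor of the complement fragment C5a, best known from neutrophils and macrophages. CCL26, or eotaxin-3, is a chemokine that attracts eosinophils through the receptor CCR3 and that IL-4 and IL-13 induce through STAT6.

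All 4 genes had higher signals with HSP990 than with DMSO, in cells with and without the knockdown, but the knockdown did not leave them alike. RAB39B was 1.74-fold higher with the knockdown than without it, by the ratio of mean signals under HSP990. RGS2, C5AR1 and CCL26 were lower with it, at 0.629, 0.549 and 0.741 of the mean signal without it. In shNTC cells, where Dox induced no hairpin against HSF1, the mean signals with Dox were 1.19-fold (RGS2), 1.40-fold (RAB39B), 0.984-fold (C5AR1) and 0.642-fold (CCL26) those without it, so for CCL26 this ratio was no higher than that with the knockdown. In cells with the knockdown, the mean signals under HSP990 were still 1.88-fold (RGS2), 5.46-fold (RAB39B), 2.11-fold (C5AR1) and 3.39-fold (CCL26) those of shNTC cells with Dox and DMSO. RNA came from whole cultures, in which a change in every cell and a change in a share of the cells cannot be told apart.

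The knockdown itself was read from HSF1, whose signals were 5.5 and 7.3 in shHSF1 cells with Dox and HSP990, against 99 and 42.5 in shHSF1 cells with HSP990. In shNTC cells HSF1 was at 36.6 and 47.9 with Dox and at 38.2 and 47.3 without. HSF1 fell by 1.87 on the scale of log2(signal + 16) with the knockdown (standard error 0.29 from 2 arrays against 2, limma adjusted p = 0.00754). Since the lower signals lay below the median of their arrays, the size depends on the value added, and was -3.17 with 1 added and -0.90 with 64. Its adjusted p in limma was between 0.00171 and 0.0643 over the alternative settings, the highest coming from a fit of the 4 shHSF1 arrays alone. HSPA6, an inducible HSP70 chaperone, was at 18.3 and 12.4 in shHSF1 cells with Dox and HSP990, at 1680.8 and 1328.5 in shHSF1 cells with HSP990, and between 5.1 and 15.5 in the 4 arrays of shNTC cells. The median probe set of an array had a signal between 10.6 and 14.2. Of the melanocyte and melanoma markers, 4 of 7 on the arrays lay above their array's median on all 8 arrays, MITF at 1185.1 to 1965.5 and SOX10 at 271.5 to 1069.4 among them, and the pigment genes PMEL, MLANA and TYR lay below it on all 8. The ratio of the ACTB 3-prime to its 5-prime signal, a measure of RNA integrity, differed between the 2 arrays of every group. It was 18.9 and 8.27 in shHSF1 cells with HSP990, and 10.3 and 5.63 in those with Dox and HSP990. In shNTC cells it was 4.73 and 46.8 with Dox and DMSO, and 6.66 and 13.7 with DMSO. All 8 arrays stayed in the main fit.

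The promoters are shown first, since heat shock elements are where HSF1 binds. RefSeq promoter windows on GRCh38.p14, from 250 bases before to 50 bases after the start, matched 3 of the 4 genes, and HSPA6 is printed beside them as a gene whose induction the knockdown removed. Each is written 5-prime to 3-prime on the gene's strand, with capitals for matches to the motifs searched. The windows are chr1:192808789-192809088 on the plus strand for RGS2, chr19:47309611-47309910 on the plus strand for C5AR1, chr7:75789697-75789996 on the minus strand for CCL26 and chr1:161524290-161524589 on the plus strand for HSPA6.
RGS2: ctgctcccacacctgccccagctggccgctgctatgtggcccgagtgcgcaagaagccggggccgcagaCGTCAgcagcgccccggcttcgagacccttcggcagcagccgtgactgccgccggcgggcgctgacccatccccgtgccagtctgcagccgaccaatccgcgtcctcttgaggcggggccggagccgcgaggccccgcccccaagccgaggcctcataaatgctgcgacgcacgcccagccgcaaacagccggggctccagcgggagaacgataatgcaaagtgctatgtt
C5AR1: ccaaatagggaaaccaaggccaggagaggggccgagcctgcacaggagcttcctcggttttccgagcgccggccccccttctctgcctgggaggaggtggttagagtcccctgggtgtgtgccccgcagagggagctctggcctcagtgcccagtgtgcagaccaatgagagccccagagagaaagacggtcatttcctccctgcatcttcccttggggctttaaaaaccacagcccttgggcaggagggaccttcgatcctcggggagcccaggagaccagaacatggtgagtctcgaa
CCL26: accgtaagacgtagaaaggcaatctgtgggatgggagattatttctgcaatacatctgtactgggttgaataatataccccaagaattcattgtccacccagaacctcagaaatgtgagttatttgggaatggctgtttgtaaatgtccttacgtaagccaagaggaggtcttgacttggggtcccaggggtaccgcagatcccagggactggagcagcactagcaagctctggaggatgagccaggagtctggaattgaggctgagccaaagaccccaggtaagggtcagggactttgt
HSPA6: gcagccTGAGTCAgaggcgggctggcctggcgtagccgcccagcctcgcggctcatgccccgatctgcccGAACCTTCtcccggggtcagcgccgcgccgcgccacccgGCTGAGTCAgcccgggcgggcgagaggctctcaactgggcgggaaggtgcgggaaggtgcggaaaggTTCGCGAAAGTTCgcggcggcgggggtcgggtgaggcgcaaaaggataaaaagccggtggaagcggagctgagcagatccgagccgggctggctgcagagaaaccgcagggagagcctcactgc

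Both strands were searched for the heat shock element pairs GAANNTTC and TTCNNGAA, 3 alternating GAA and TTC units with 2 bases between them, the cAMP response element TGACGTCA and its shorter form TGACG, AP-1 (TGANTCA), the ATF4 composite element TGATGNAA, the antioxidant response element TGACNNNGC, the STAT6 palindrome of TTC and GAA with 4 bases between them, and TATAAA. None of the 3 promoters held a heat shock element pair, while 13.5% of 35116 promoters held at least 1 of the pairs. The HSPA6 window held both pairs, overlapping in a run of 3 alternating units that begins 74 bases before the start. Such a run occurs in 0.49% of promoters. It also held a further GAANNTTC 180 bases before the start, TGANTCA at 244 and 139 bases before it, and TGACNNNGC, which overlaps the second of these. Of the 16 genes that rose with HSP990 and fell with the knockdown, 14 had a window and 8 of these held at least 1 pair. RGS2 had a single match, the TGACG form read on the minus strand 181 bases before the start, a motif found in 24.6% of promoters. C5AR1 and CCL26 had no match to any of the motifs, including the ATF4 composite, present in 3.62% of promoters, and the STAT6 palindrome, present in 6.44%. A match, or none, says only which letters stand in these windows.

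RGS2 was read by the probe set 202388_at. Its signals were 1686.9 and 1372.6 in shHSF1 cells with Dox and HSP990, and 2592.3 and 2269.6 in shHSF1 cells with HSP990. They were 751.1 and 878.9 in shNTC cells with Dox and DMSO, and 674.7 and 695.6 in shNTC cells with DMSO. The 4 groups did not overlap, and shHSF1 cells with HSP990 were the highest. The log2 change with HSP990 was 1.80 (standard error 0.16) between shHSF1 and shNTC cells without Dox and 0.89 (standard error 0.16) between those with Dox. With the knockdown under HSP990 it was -0.67 (standard error 0.16), so the signal lay lower but above every DMSO array.

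RAB39B had the opposite order of the HSP990 groups. With the brighter probe set, 230075_at, its signals were 301.4 and 351.3 in shHSF1 cells with Dox and HSP990, and 176.2 and 198.4 in shHSF1 cells with HSP990. In shNTC cells with Dox and DMSO they were 66 and 53.6, and in shNTC cells with DMSO 43.9 and 41.5. No groups overlapped here either, and the highest arrays were those with both the knockdown and HSP990. The log2 change with HSP990 was 1.79 without Dox and 2.18 with it (standard error 0.19 each), and that with the knockdown was 0.75 (standard error 0.19).

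The second probe set of RAB39B, 238695_s_at, gave the same order of the HSP990 groups. It had signals of 95.1 and 88.9 in shHSF1 cells with Dox and HSP990, against 34.4 and 31 in shHSF1 cells with HSP990. The DMSO groups overlapped, at 19.1 and 13.6 in shNTC cells with Dox and at 15.9 and 13.2 in shNTC cells without. The knockdown change was larger on this probe set, at 1.15 on the log2 scale, and the change with HSP990 without Dox was smaller, at 0.67 (standard error 0.19 each). The rise with HSP990 without the knockdown thus ranged from 2.25-fold to 4.39-fold between the probe sets, by mean signals.

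C5AR1 was dim in DMSO but above its array's median there. Its probe set 220088_at had signals of 45.4 and 35.1 in shHSF1 cells with Dox and HSP990, and of 61.1 and 85.4 in shHSF1 cells with HSP990. The shNTC cells had 20 and 18.1 with Dox and 17.2 and 21.5 without, and these overlapped. The log2 change with HSP990 was 1.33 without Dox and 0.68 with it, and that with the knockdown was -0.66 (standard error 0.21 each). The arrays of shHSF1 cells with HSP990 lay apart from each other, and the first change was 1.52 without the first of these arrays and 1.13 without the second. Because 16 was added to each signal before the log, these changes are smaller than the ratio of the signals, which was 3.79-fold without Dox and 2.11-fold with it.

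CCL26, on probe set 223710_at, was at 103 and 82.9 in shHSF1 cells with Dox and HSP990 and at 132 and 119 in shHSF1 cells with HSP990. In shNTC cells with Dox and DMSO it was at 28.2 and 26.6, and in shNTC cells with DMSO at 46 and 39.3. No groups overlapped, and the Dox group lay lower in both lines. The log2 change with HSP990 was 1.32 with Dox and 1.27 without it, and that with the knockdown was -0.38 (standard error 0.20 each). The difference between the first 2 of these was 0.05 (standard error 0.28), the smallest in size of the 4 genes. It was -0.91 for RGS2 (standard error 0.23), -0.65 for C5AR1 (standard error 0.29) and 0.39 for RAB39B (standard error 0.27).

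**Figure D1:**
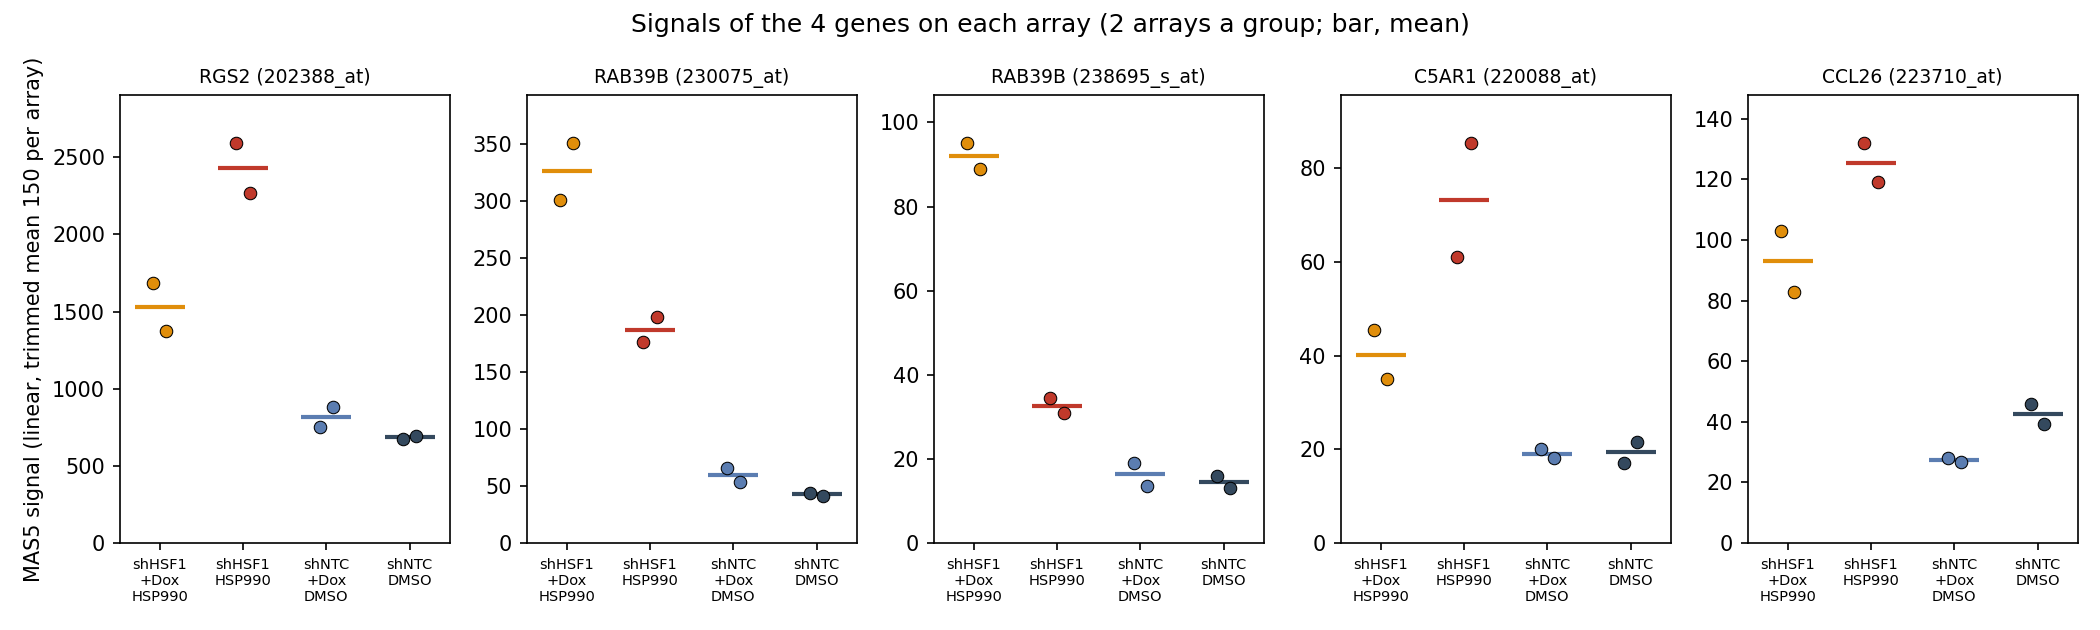
Signal of the 5 probe sets (vertical axis, MAS5 signal on a linear scale from 0) in each of the 8 arrays by group, with a point for each array and a bar for the mean of 2. Both groups of shHSF1 cells with HSP990 lie above both groups of shNTC cells with DMSO in every panel, and for RAB39B alone the knockdown group is the higher of the HSP990 groups.

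The choice of the genes set HSP990 signals against those of both shNTC groups, so no difference between groups is fully independent of it. Dox in shNTC cells was the only difference the choice did not use directly. None of the 4 genes passed the test in it (adjusted p = 1 each by limma), with log2 differences of 0.24 for RGS2 (standard error 0.16, unadjusted p = 0.17 in this limma fit), 0.36 for RAB39B (standard error 0.19, unadjusted p = 0.0893 in this limma fit), -0.01 for C5AR1 (standard error 0.21, unadjusted p = 0.962 in this limma fit) and -0.43 for CCL26 (standard error 0.20, unadjusted p = 0.0524 in this limma fit). The adjusted p ranged from 0.676 to 1 for these genes over the alternative settings. By limma 0 of 12672 genes were called in this comparison (0%), with 306 at an unadjusted p under 0.05. The arrays with and without Dox did not overlap for RGS2, RAB39B and CCL26, and they did not overlap in either direction for 28.4% of all genes tested. The array with the highest ACTB ratio was also left out. The change with HSP990 against shNTC cells with Dox and DMSO was then 1.00 for RGS2, 2.06 for RAB39B, 0.64 for C5AR1 and 1.30 for CCL26.

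**Figure D2:**
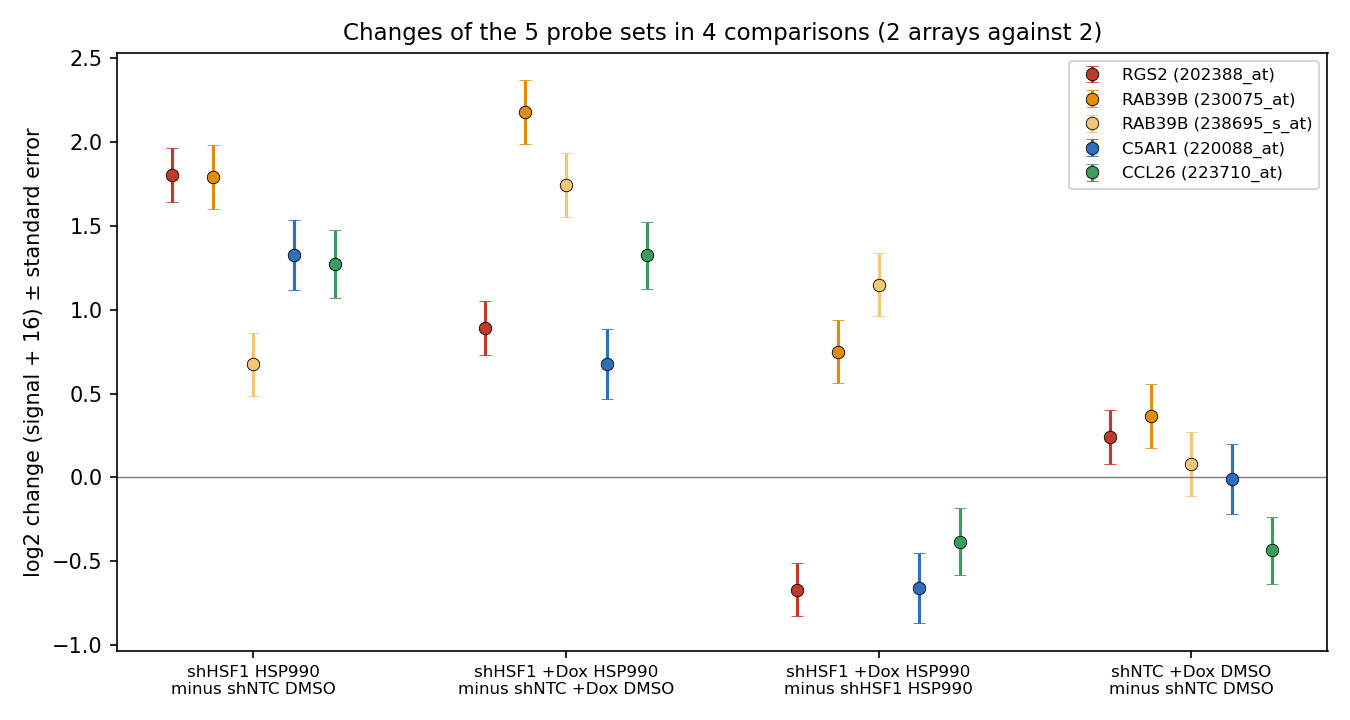
Change of each probe set on the log2 scale (vertical axis, log2 of the signal plus 16, with standard errors) in 4 comparisons of 2 arrays against 2 (horizontal axis). All 5 lie above 0 in both comparisons with HSP990, while under the knockdown both RAB39B probe sets lie above 0 and RGS2, C5AR1 and CCL26 below it.

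The genes were then placed among all 12672 genes with enough signal, that is, those that reached the median of the array on 2 or more arrays. All 4 passed, and each was above the median on all 8 arrays. With HSP990 and no Dox, limma called 25 genes higher (0.197% of those tested) and 3 lower (0.0237%), at an adjusted p under 0.05. Of the 25 genes, 16 fell with the knockdown, HSPA6 and the cochaperone BAG3 among them. The other 9 were the 4 genes described here, 4 on the list used for the ATF4 program, and INHBE. The 4 on the list were CHAC1, SESN2, DDIT3 and SLC7A11, and INHBE is a subunit of the activin and inhibin hormones. Since the 4 genes were selected on this contrast, nothing is read from their place among the calls.

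In the comparison of shHSF1 cells with Dox and HSP990 with shNTC cells with Dox and DMSO, limma called 360 genes higher (2.84%) and 379 lower (2.99%). With the knockdown it called 126 higher (0.994%) and 234 lower (1.85%). Higher signals in both comparisons with HSP990, with no overlap of arrays in either, were seen for 795 genes (6.27%), and 10 genes (0.0789%) also had a log2 change of at least 1 in each. RAB39B and CCL26 were 2 of these 10, the second and the fifth by the smaller of the 2 changes, at 1.79 and 1.27. The others were CHAC1 (2.14), CTH (1.44), SESN2 (1.35), DDIT3 (1.18), IL6 (1.06), PCK2 (1.06), GDF15 (1.01) and INHBE (1.00). CHAC1, SESN2, DDIT3 and GDF15 belong to the ATF4 list of 22 genes, which need not hold every gene of the program. CTH and PCK2 are enzymes of cysteine synthesis and of mitochondrial phosphoenolpyruvate synthesis. These enzymes, IL6 and INHBE are not on the list, and whether they belong to the program was not tested. RGS2 ranked 20 with a smaller change of 0.89 and C5AR1 ranked 42 with 0.68, so neither was among the 10, and INHBE was the last gene inside the limit.

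The ATF4 program and the genes that fell with the knockdown were set beside the 4 genes. Of 21 ATF4 genes tested, 4 were called higher with HSP990 without Dox and 10 in shHSF1 cells with Dox and HSP990 against shNTC cells with Dox and DMSO. With the knockdown 0 were called by limma, and 6 had an unadjusted p under 0.05, as had 1943 of all 12672 genes. The medians of their log2 changes were 0.74, 0.82 and 0.11 in these comparisons, beside 0.0096, 0.014 and 0.0015 over all genes. For the 16 genes that fell with the knockdown the medians were 1.6, 0.098 and -1.8, values that chose them in earlier work on these arrays. The knockdown changes of RGS2 (-0.67) and C5AR1 (-0.66) lay near the lowest of the ATF4 genes, at -0.679, and RAB39B, at 0.75, lay above the highest of them, at 0.702.

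**Figure D3:**
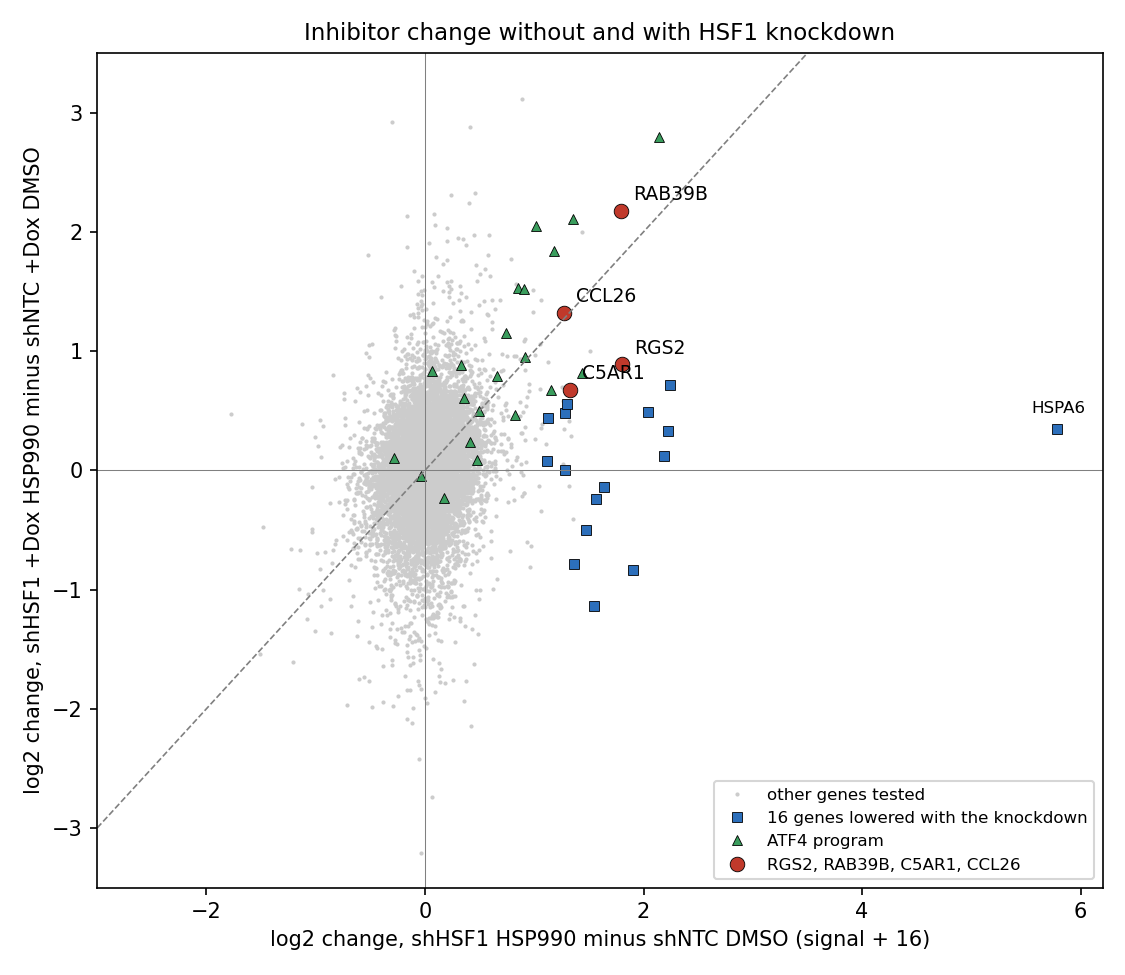
Change with HSP990 in cells without Dox (horizontal axis) and with Dox (vertical axis) on the log2 scale, for each of the 12672 genes tested, with the dashed line where both are equal. RAB39B (1.79 and 2.18) lies above the line and CCL26 (1.27 and 1.32) on it, RGS2 (1.80 and 0.89) and C5AR1 (1.33 and 0.68) lie below it, and HSPA6 (5.78 and 0.34) lies far to the right near 0.

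The genes most like each of the 4 were sought by Pearson correlation over the 8 arrays among 520 genes whose group means spanned at least 1 on the log2 scale. All points share the same 8 arrays, and the correlations describe them without a test. RGS2 was most like SLC7A11, the cystine transporter, which is on the ATF4 list (r = 0.977). Next came ECM2, an extracellular matrix protein (0.943), and the non-coding RNA LINC02806 (0.935). C5AR1 had LINC02806 (0.954), SLC7A11 (0.954) and ZFAND2A (0.944), a proteasome adaptor and 1 of the 16 genes that fell with the knockdown. RAB39B was most like ZFP69B, a zinc finger protein (0.989), IL6, the inflammatory cytokine (0.987), and SESN2, a stress-induced sestrin on the ATF4 list (0.977). CCL26 was most like SLC1A4, a transporter of small neutral amino acids (0.970), PCK2 (0.963) and LINC02806 (0.949). LINC02806 was dim, at 0.6 to 4.4 on the DMSO arrays, below their medians, and at 11.1 to 27.4 on those with HSP990. Among the 4 genes, RGS2 and C5AR1 were the most alike (0.951) and RAB39B and C5AR1 the least (0.739). All 4 were chosen for higher signals with HSP990 than with DMSO, so high correlations among them follow in part from that choice.

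**Figure D4:**
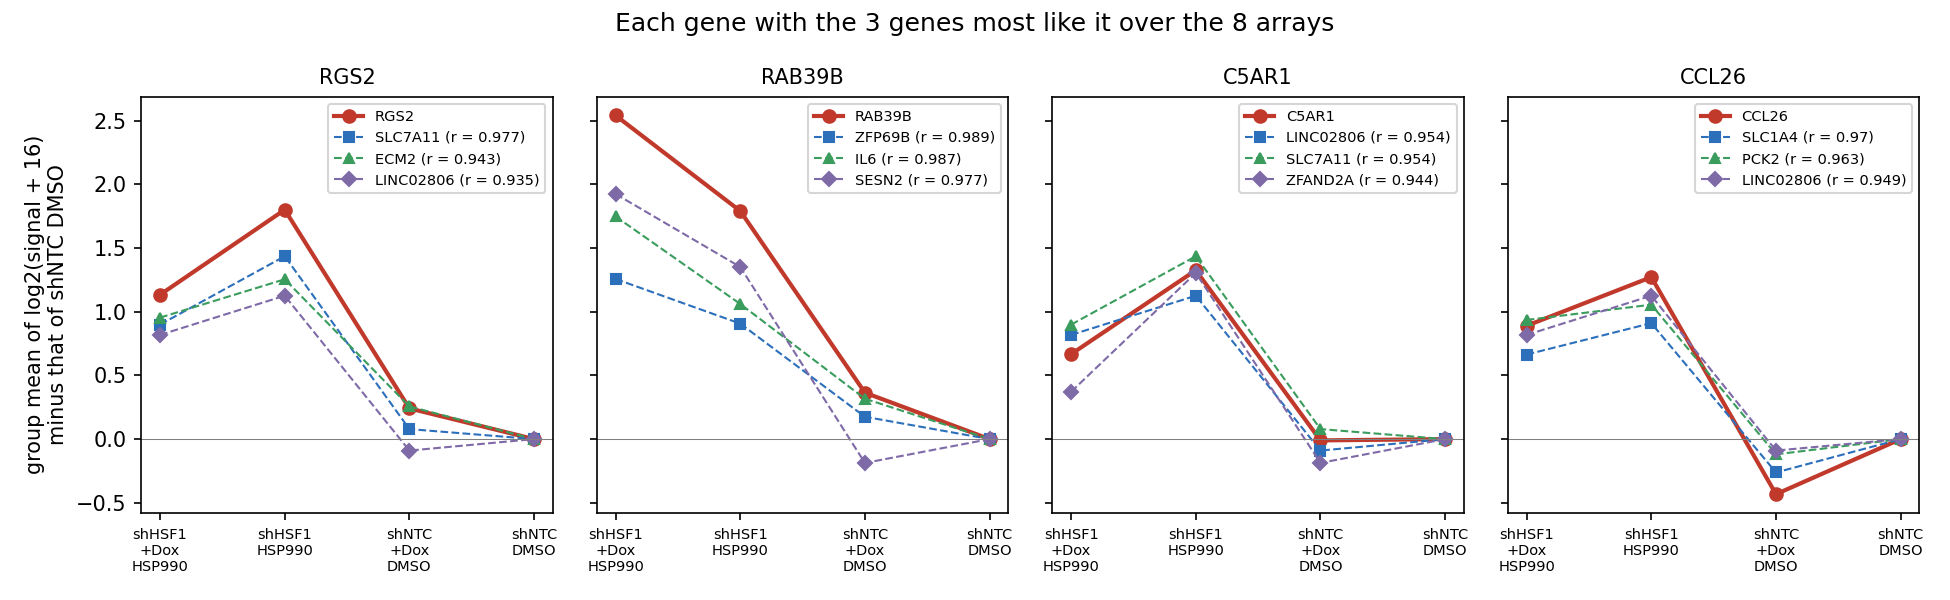
Group means of log2(signal + 16) minus that of shNTC cells with DMSO (vertical axis) by group (horizontal axis), for each gene (solid line) and the 3 genes most like it (dashed lines). In the RAB39B panel all 4 lines peak in shHSF1 cells with Dox and HSP990, and in the panels of RGS2, C5AR1 and CCL26 they peak in shHSF1 cells with HSP990.

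Partners of each gene were taken from lists by role, from which the 4 genes themselves were left out. Among other RGS genes of the same family, G proteins and the enzymes of Gq and cAMP signalling, 31 of 37 were tested, and 0 were called with HSP990 without Dox (3 at an unadjusted p under 0.05 by limma, beside 628 of all 12672 genes). PLCB4, a phospholipase C that Gq activates, was the only gene of the list called elsewhere. It was higher by 1.15 on the log2 scale in shHSF1 cells with Dox and HSP990 than in shNTC cells with Dox and DMSO (standard error 0.18, adjusted p = 0.00531 by limma) and by 1.06 with the knockdown (adjusted p = 0.0128 by limma). The second of these calls was lost in 5 of 18 alternatives, among them leaving out any 1 of the 4 arrays compared (adjusted p = 0.0567 to 0.0756 by limma). RGS4 and RGS16, relatives of RGS2 that also act on Gq, were at 144.6 to 336.5 and at 49.3 to 92 over the 8 arrays, and neither was called.

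RAB39A, the closest relative of RAB39B, had signals of 19.5 and 35.5 in shHSF1 cells with Dox and HSP990, and of 51 and 97.1 in shHSF1 cells with HSP990. In shNTC cells it was at 20.8 and 20.5 with Dox and at 24.3 and 24.4 without. Its knockdown change was -1.03 (standard error 0.27, adjusted p = 0.0754 by limma) and its change with HSP990 without Dox was 1.11 (standard error 0.27, adjusted p = 0.279 by limma), neither past the threshold. The adjusted p of its knockdown change was 0.0333 to 0.285 by limma over the alternatives, and was under the threshold in 3 of 18, with median centring (0.0431), with a block for the replicate number (0.0334) and without array 1 of shHSF1 cells with HSP990 (0.0333). The subunits of the complex reported to load RAB39B with GTP were measured on every array, C9orf72 at 236.2 to 290, SMCR8 at 428.8 to 666.1 and WDR41 at 729.7 to 943.8, and none was called.

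Of the other RAB genes and partners, 50 of 55 were tested and 0 were called with HSP990 without Dox (2 at an unadjusted p under 0.05, by limma). With the knockdown 0 were called higher and 4 lower, beside 0.994% and 1.85% of all genes tested. An unadjusted p under 0.05 by limma was seen for 13 of the 50, and for 1943 of all 12672 genes. RAB29, which acts at the Golgi and lysosome, was lower and kept its call in all 18 alternatives (-1.30, standard error 0.17, adjusted p = 0.00325 by limma). RAB38, which sorts melanosome enzymes, was lower by 1.04 (a log2 change of -1.04, adjusted p = 0.0135 by limma), a call lost in 3 alternatives, among them those without array 1 of shHSF1 cells with HSP990 and without array 2 of shHSF1 cells with Dox and HSP990 (adjusted p = 0.0881 and 0.104 by limma). The other calls were RAB5C and RAB6B, each lost in 10, 6 of them with 1 array left out. Against shNTC cells with Dox and DMSO, RAB3B, a regulator of secretion, was higher (1.40, standard error 0.21, adjusted p = 0.00456 by limma), and RAB5C, RAB22A, RAB29 and RAB38 were lower. The call of RAB22A was lost in 11 alternatives and those of RAB5C and RAB38 in 2 each.

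Complement genes were mostly at low signal, and 11 of 32 were tested. C5AR2, the second receptor of C5a and the next gene to C5AR1 on chromosome 19, was at 0.3 to 2.6, and C5 itself at 0.5 to 9.6, both below the median and not tested. C3AR1, the receptor of C3a, was at 19.4 to 29.2 and was not called. With HSP990 without Dox 0 of the list were called (1 at an unadjusted p under 0.05, by limma). C7, a part of the membrane attack complex, rose with the knockdown (1.46, standard error 0.23, adjusted p = 0.00898 by limma), and CLU, the chaperone clusterin that binds this complex, fell (-1.94, standard error 0.25, adjusted p = 0.0032 by limma). The C7 call was lost in 3 of 17 alternatives, among them those without array 1 of shHSF1 cells with HSP990 (adjusted p = 0.0542 by limma) and without array 2 of shHSF1 cells with Dox and HSP990 (adjusted p = 0.0534 by limma), and that of CLU in 0 of 18. Against shNTC cells with Dox and DMSO, C7 was higher (1.73, adjusted p = 0.00235 by limma) and CFI, the protease that inactivates C3b, lower (-1.47, adjusted p = 0.00707 by limma, and 0.0531 without array 2 of shHSF1 cells with Dox and HSP990).

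In the list of eotaxins, their receptors and the IL-4 and IL-13 pathway, 11 of 31 genes were tested. CCL11 (eotaxin-1) lay at 0.4 to 4.8 and CCL24 (eotaxin-2), the neighbour of CCL26 on chromosome 7, at 0.7 to 16.7. Among receptors and signal carriers, STAT6 was at 415.6 to 570.4, IL4R at 28.3 to 67.9 and the decoy receptor IL13RA2 at 2439.7 to 4505.8, and none of these was called. With HSP990 without Dox 0 of the list were called (1 at an unadjusted p under 0.05, by limma). POSTN, the matrix protein periostin, was higher with the knockdown (1.17, standard error 0.20, adjusted p = 0.0131 by limma) and against shNTC cells with Dox and DMSO (1.33, adjusted p = 0.00435 by limma), the first call being lost in 3 of 18 alternatives, among them those without array 2 of either HSP990 group (adjusted p = 0.0587 to 0.1 by limma). IL13RA1, the signalling receptor chain of IL-13, was lower in the second comparison (-0.94, standard error 0.18, adjusted p = 0.0154 by limma), with signals of 153.9 and 154.3 in shHSF1 cells with Dox and HSP990, against 344.3 and 281.2 in shNTC cells with Dox and DMSO. This call was lost without either array of shHSF1 cells with Dox and HSP990 and without array 1 of shNTC cells with Dox and DMSO (adjusted p = 0.0584 to 0.0744 by limma).

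The markers of cells in which C5AR1 and CCL26 are best known were mostly low. Of 6 myeloid markers on the arrays, 5 lay below the array's median on all 8 arrays, PTPRC (CD45) at 0.5 to 5.4 and CD14 at 0.5 to 6.5 among them, and LYZ was at 64.1 to 130.5. The other 5 were each at most 9.1, so LYZ made up most of the summed myeloid signal. That sum was 82.3 to 92.9 in shHSF1 cells with Dox and HSP990 and 117.8 to 152.5 in shHSF1 cells with HSP990. In shNTC cells it was 102.4 to 155.1 with Dox and DMSO and 106.9 to 126 with DMSO. Of the 4 endothelial markers, VWF (0.2 to 4.4) and CDH5 (0.6 to 5.5) were below the median on all 8 arrays, and PECAM1 (5.4 to 23.8) and KDR (6.2 to 17.8) reached it on some. Of the 4 eosinophil markers on the arrays, CLC (0.2 to 5.2) and EPX (0.1 to 2.3) lay below the median on all 8, and SIGLEC8 (2.6 to 15.1) and PRG2 (1.6 to 15.6) reached it on some. Their summed signal was 24.4 to 33.2 in shHSF1 cells with Dox and HSP990, 18.6 to 22 in shHSF1 cells with HSP990, 19.5 to 21.7 in shNTC cells with Dox and DMSO, and 5.1 to 17.2 in shNTC cells with DMSO. The keratins KRT10 (876.8 to 1233.1) and KRT14 (74.2 to 169.7) and the collagen COL1A1 (55.8 to 117) were above the median on all arrays. The fibroblast marker DCN (9.5 to 35.8) reached it on some, while KRT5, KRT1, COL1A2 and COL3A1 were at most 9.7. The part of these markers in the results was not tested.

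Up to 3 protein-coding neighbours on each side of the 4 genes, on chromosomes 1, X, 19 and 7, were also read. Beside RGS2, its relatives RGS1 and RGS13 lay at 0.6 to 4.4 and at 0.1 to 4.1, below the median, and UCHL5, RO60 and GLRX2 on the other side were not called in any comparison. No neighbour of RAB39B, C5AR1 or CCL26 that was tested was called in any comparison. INAFM1, next to C5AR1, was at 26.2 to 71.8 and had a log2 change of 0.45 with HSP990 without Dox (adjusted p = 0.998 by limma).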

How the data were processed

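The authors hybridized amplified, biotin-labelled cDNA of A375 cells to HG-U133 Plus2 arrays and computed MAS5 signals (version not given in the sources used here). The deposited values are intensities on a linear scale (trimmed mean 150 on every array, 2 percent trimmed at each end), and no further normalization between arrays was made. Groups and replicate numbers came from the titles. The samples' descriptions mention other experiments and were left aside. Of 54675 probe sets, 41091 had a single symbol, and the one with the highest mean stood for each gene. Signals plus 16 were taken to log2. All 8 arrays were fitted in limma 3.58.1 (R 4.3.3) as 4 group means, with empirical Bayes variances and a trend on intensity (4 residual and 6.36 prior degrees of freedom). Tests were two-sided, with Benjamini-Hochberg adjustment over the 12672 genes tested. The limma fit was tested on simulated data for the knockdown comparison alone. These data started from the log2 values of the tested genes and had independent noise on each array.

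The comparisons were shHSF1 cells with HSP990 against shNTC cells with DMSO, shHSF1 cells with Dox and HSP990 against shNTC cells with Dox and DMSO, the knockdown (shHSF1 cells with against without Dox, both with HSP990) and Dox in shNTC cells. They share arrays with each other. The genes, the partner lists and the alternatives were chosen with earlier results of these data known. Partners were named by role or as the called genes of each list, and the genes most like each of the 4 by the 3 highest correlations. ECM2, ZFP69B, CTH, INHBE and the other genes named outside the lists came from that rule or from the count they belong to. No 2 arrays held identical values, and any pair of arrays (28 pairs) had a correlation of 0.98 to 0.995 on the log2 scale. The number of arrays limits the precision. Alternatives were adding 1 or 64 in place of 16, a stricter filter or none, quantile normalization or median centring, averaging a gene's probe sets, no trend, the arrays of a comparison alone, a replicate block, each array left out in turn and, chosen after seeing the data, the other RAB39B probe set.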

Additional observations from a re-analysis of the deposited data

Results flagged for a closer look

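The RGS2 arrays with and without Dox lay in opposite order in the 2 lines. RGS2 was lower with Dox in both arrays of shHSF1 cells with HSP990, where Dox induces the knockdown. It was higher with Dox in both arrays of shNTC cells with DMSO. In shNTC cells the log2 difference was 0.24 (standard error 0.16, unadjusted p = 0.17 by limma) and was not called. Arrays of that comparison did not overlap for 28.4% of all genes tested, so their order alone shows no response to Dox. The knockdown change minus the Dox change in shNTC cells was -0.908 on the log2 scale (standard error 0.23). This value was not tested, because RGS2 was selected on the contrasts that make it up.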

How the results depend on the processing

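Over the 18 or 19 alternatives run, both HSP990 changes of the 4 genes stayed above 0, and the knockdown change stayed above 0 for RAB39B and below 0 for RGS2, C5AR1 and CCL26. With 1 added before the log, the HSP990 changes without Dox were 2.11 for RAB39B, 1.86 for C5AR1 and 1.54 for CCL26, and with Dox 2.43, 1.03 and 1.72. With 64 added they were 1.24, 0.71 and 0.83 without Dox, 1.66, 0.33 and 0.78 with Dox, and the knockdown change of C5AR1 was -0.39. With the mean of all probe sets, RAB39B had changes of 1.23, 1.96 and 0.95 in these 3 comparisons, and with its other probe set 0.67, 1.74 and 1.15. The difference between the HSP990 changes with and without Dox was 0.73 with the mean and 1.07 with the other probe set for RAB39B, -0.39 with 64 added for C5AR1 and 0.18 with 1 added for CCL26. The Dox change of C5AR1, near 0, turned above 0 with quantile normalization (0.012), with median centring (0.0083), without the second array of shNTC cells with Dox (0.029) and without the second array of shNTC cells with DMSO (0.078). Leaving out each array in turn gave C5AR1 HSP990 changes of 1.13 to 1.52 without Dox, knockdown changes of -0.86 to -0.46 and a difference of -0.85 to -0.45. For CCL26 it gave HSP990 changes with Dox of 1.19 to 1.46, knockdown changes of -0.52 to -0.25 and a difference of -0.083 to 0.18, and for the Dox change of C5AR1 -0.10 to 0.08. The genes with a log2 change of at least 1 in both HSP990 comparisons numbered 33 with 1 added, 4 with 64 added and 10 to 17 with an array left out (17 without the first array of shHSF1 cells with HSP990).

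Counts of called genes moved more. With no filter limma called 16 genes with HSP990 without Dox, 450 with Dox, 221 with the knockdown and 59 for the difference, in place of 28, 739, 360 and 100. With the knockdown it called 96 when only its own arrays were fitted. Leaving out an array gave 5 to 30, 246 to 803, 112 to 382 and 7 to 75. The lowest of these came without the second array of shNTC cells with DMSO, without the second array of shHSF1 cells with Dox and HSP990 (the second and the third of these ranges) and without the first array of shNTC cells with DMSO. Over the partner lists, 0 genes were called with HSP990 without Dox, and 1 with 64 added, with the mean of all probe sets or with only the arrays of the comparison, and 0 to 1 with an array left out. The lists held 10 calls in the comparison with Dox (6 to 12 with an array left out), 8 with the knockdown (2 with only its own arrays, 3 to 7 with an array left out) and 0 for the difference (1 with 64 added, quantile normalization, median centring, averaged probe sets or no trend, and 0 to 3 with an array left out). The cause was not tested. A block for the replicate number raised the counts to 44, 1237, 752 and 279, and those of the lists to 16 with the knockdown and 9 for the difference. The labels do not say that a number marks a shared culture or day. Deviations of equally numbered arrays correlated at 0.685 between the HSP990 groups and at 0.464 between the DMSO groups. For the other 4 pairs of groups they correlated at 0.0156 to 0.276. They were thus higher between groups that share both line and treatment, which cannot be told apart here. In this balanced design the block changes the errors and not the log2 changes.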
